A study of Gallus gallus with 3 samples.

Results

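Myosins, troponins, tropomyosins and actins were followed in the spinal neural tube of the chicken embryo between Hamburger-Hamilton stages HH14 and HH19. Genes were chosen by symbol. They were the MYH, MYL, MYO and TPM genes with a digit after the prefix, the MYLK, TNNC, TNNI and TNNT genes, and the 6 actin symbols ACTA1, ACTA2, ACTB, ACTC1, ACTG1 and ACTG2. Of 15916 genes in the expression table, 65 met this rule. They carried 64 symbols, because ACTG1 stood on 2 rows, and ACTG2 was not among them. By name, 29 were muscle genes (27 striated, 2 smooth), 6 were shared by muscle and other cells, and 29 were non-muscle genes, 23 of them unconventional myosins. The remaining gene, TNNI3K, is a kinase that the rule took in by its name.

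Actin filaments and the myosins that pull on them drive contraction in muscle and shape change in most other cells. In an epithelium such as the neural tube, non-muscle myosin II built from heavy chains and light chains works on cytoplasmic beta and gamma actin near the apical junctions, and phosphorylation of its regulatory light chain by kinases such as MYLK switches it on. In striated muscle, troponin and tropomyosin on the thin filament gate the access of sarcomeric myosin to alpha actin in response to calcium. Unconventional myosins do not form thick filaments and mostly carry or anchor membranes and organelles.

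The samples were wild-type White Leghorn embryos, for which the labels name no treatment, at stage HH14 (2 libraries of polyadenylated RNA) and at stage HH19 (1 library). Each library pooled neural tube pieces of about 25 embryos, cut at brachial level and reaching into the thoracic region. Per the labels, most neighbouring tissue was taken off by hand and the rest of the mesenchyme, notochord and surface ectoderm was removed after trypsin. The HH19 library carries the same dissection text as the HH14 libraries, and nothing states that the HH14 pools came from separate egg batches.

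Expression was deposited as TPM, a share of all transcripts corrected for gene length, with the HH14 libraries merged into 1 column and HH19 in another. The TPM values of most genes were whole numbers of reads, plus 1 added read per gene and library, times a constant over the gene length. That let the reads of each library be recovered for 14502 genes (91.1%), including 56 of the 65. The HH14 libraries are called A and B here, B being 1.28 times as deep as A, and neither can be matched to a replicate number. Recovered genes held 11164248 reads in A, 13487446 in B and 12174107 at HH19. The HH14 libraries stood apart in tissue markers. Summed over the 10 measured lateral plate and endoderm markers, TPM was 57.2 in A, 10.4 in B and 13.0 at HH19, and over 10 surface ectoderm markers it was 230, 127 and 156. Of 7 neural tube markers, all tested by the size rule given below, 4 were higher at HH19 and 0 lower, where 3.93% and 1.38% of all tested genes were. Their median difference was 1.06 in log2(TPM + 1), and their sum was 883 TPM in the HH14 column and 1531 TPM at HH19. Their 3 recovered genes, DBX1, DBX2 and ELAVL4, summed to 147 TPM in A, 258 TPM in B and 464 TPM at HH19. Of these 3, 1 was higher in A than in B and 2 were lower, so only the sum set the HH14 libraries apart. MYOG, the factor that starts myotube differentiation, had no read in any library.

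A gene was tested by size where it averaged 1 TPM or more over the 3 libraries, and was called higher or lower at HH19 where log2(TPM + 1) differed by at least 1. Differences below are on that scale, where the change of a low gene comes out smaller than in plain TPM. Of the 65 genes 41 passed the filter. Lower at HH19 were 4 of them, MYLK, ACTA2, MYL3 and TNNC1, where 1.38% of all 11097 tested genes were lower. Higher were 0 of the 41, where 3.93% of all tested genes were higher, and 5.31% differed either way. The other 37 lay within the limits, and the median difference was 0.03, against 0.05 over all tested genes. The filter can pass a low gene through its higher stage, so these shares describe the tested genes and not all 65. In bulk RNA, fewer cells of a type and less RNA per cell cannot be told apart.

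**Figure D1:**
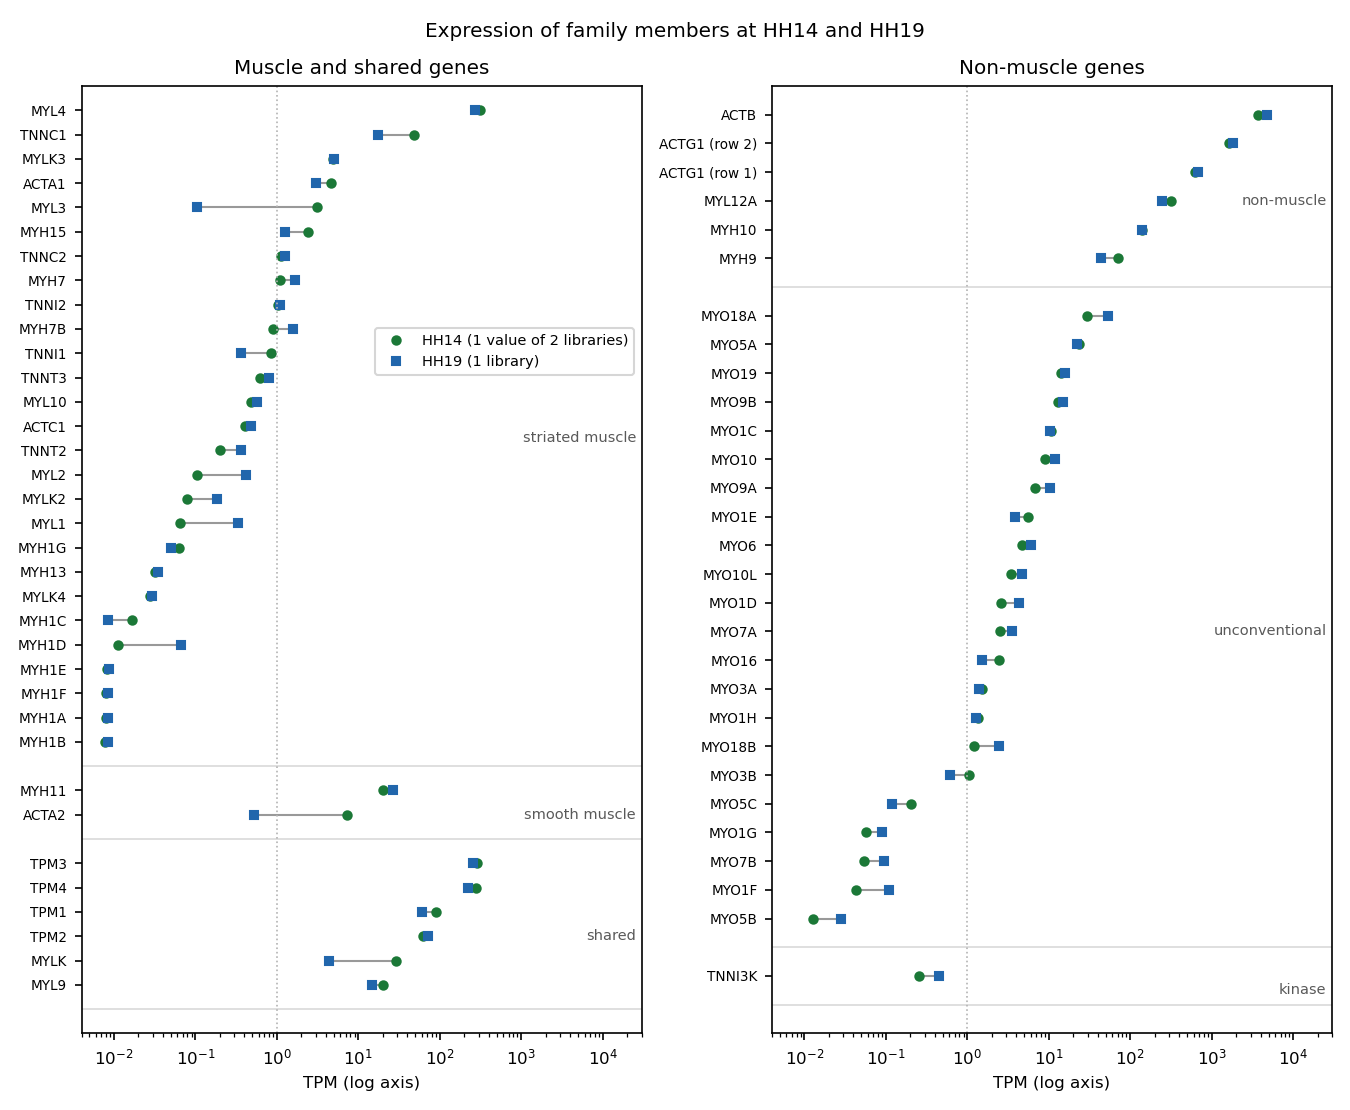
TPM of 64 of the 65 rows at HH14 (circles, the single value of 2 libraries) and HH19 (squares, 1 library) on a log axis, in order of the HH14 value within each class; the dotted line marks 1 TPM. ACTB at 3717 and 4765 TPM leads all rows, and long bars toward lower HH19 values are seen for MYL3, ACTA2, MYLK and TNNC1.

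The called genes were muscle genes or genes shared by muscle and other cells, and most family TPM came from non-muscle genes. Summed over the 29 muscle genes, the level was 415 TPM in the HH14 column and 335 TPM at HH19, and MYL4 alone gave 316 and 271 TPM of it. Without MYL4 the muscle sum was 98.7 TPM in the HH14 column, 119 TPM in A, 78.1 TPM in B and 64.0 TPM at HH19. Leaving out TNNC1 as well, it was 67.2 TPM in A, 32.5 TPM in B and 46.4 TPM at HH19, with HH19 between the HH14 libraries. The 29 non-muscle genes summed to 6645 and 7868 TPM. By call, 3 of 12 tested muscle genes and 1 of 6 shared genes were lower, where 1.38% of all tested genes were. Of 23 tested non-muscle genes 0 were called in either direction, near the share of 5.31% over all tested genes. The median difference was -0.10 for muscle, -0.37 for shared and 0.16 for non-muscle genes. Without MYL4 the muscle median was 0.03, and over those recovered genes it was 0.16 against library B alone and -0.26 against library A alone, so its sign depended on the HH14 library. With no filter the muscle median was 0.00.

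MYLK (ENSGALG00000011708) encodes the kinase of the myosin regulatory light chain in smooth muscle and non-muscle cells. Of the 4 lower genes it showed the largest difference in log2(TPM + 1). In plain TPM the HH14 column was 6.68-fold above HH19 for MYLK, less than for ACTA2 (14.1-fold) and MYL3 (29.0-fold). MYLK had 44.1 TPM in library A, 14.3 TPM in library B and 4.37 TPM at HH19, from 3395, 1415 and 354 reads. HH19 was below both HH14 libraries, and these lay 3.07-fold apart in TPM. The difference was -2.49 against the HH14 column, -3.07 against A and -1.51 against B.

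TNNC1 (ENSGALG00000001459), troponin C of slow and cardiac muscle and the calcium sensor of the thin filament, was the lower gene with the closest HH14 libraries. Its values were 52.1 TPM in A, 45.6 TPM in B and 17.7 TPM at HH19, from 625, 702 and 223 reads. HH19 was 2.58-fold below library B and 2.94-fold below library A in TPM, so the HH14 libraries lay close together and HH19 apart from them. On the log2(TPM + 1) scale the difference from the HH14 column was -1.42.

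MYL3 (ENSGALG00000005448), the ventricular and slow muscle essential light chain, had 4.84 TPM in A, 1.31 TPM in B and 0.106 TPM at HH19. These values rest on 129, 44 and 2 reads. By reads alone, scaled for depth and without the added read, HH14 was 40.0 times HH19, with an exact 95% interval of 10.9 to 333. Library B alone was 18.1 times HH19, with an interval of 4.72 to 154. These intervals cover counting error only. The log2(TPM + 1) difference was -1.88 against the HH14 column and -1.06 against library B.

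ACTA2 (ENSGALG00000006343), smooth muscle alpha actin, was high in library A alone. It had 13.9 TPM in A, 0.744 TPM in B and 0.522 TPM at HH19, from 379, 25 and 14 reads. The HH14 libraries were 18.7-fold apart, and B and HH19 were close. The difference from the HH14 column was -2.45, and from library B it was -0.20, so the call was not met without library A. Markers that also stood high in A were those of lateral plate and endoderm and those of surface ectoderm. Of 10 measured lateral plate and endoderm markers 5 passed the filter, and all 5 were higher in A than in B. A low marker can pass through its value in A, so that count was partly set by the filter. All 10 measured surface ectoderm markers were tested and were higher in A, where 54.6% of all recovered and tested genes were. HAND1, a lateral plate and heart factor, had 8.21 TPM in A, 0.601 TPM in B and 0.0812 TPM at HH19. The smooth muscle and pericyte list without its family members did not have its highest sum in A, with 41.3 TPM in A, 76.3 TPM in B and 92.8 TPM at HH19, most of it from the intermediate filament gene DES. Of its 4 tested genes, 2 were higher in A than in B and 2 were lower. TAGLN was highest in A as ACTA2 was, with 4.05 TPM in A, 2.26 TPM in B and 1.40 TPM at HH19. The part of these tissues in the ACTA2 values was not tested.

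Markers of heart and skeletal muscle are given beside MYL3 and TNNC1. Of 10 measured cardiac markers 1, HAND1, passed the filter, and the list summed to 9.35 TPM in A, 1.25 TPM in B and 2.03 TPM at HH19. Without the family member TNNT2 the sum was 9.07, 1.12 and 1.67 TPM. HAND1, with values given above, made up most of the sum in A and little of it at HH19. The other markers together were thus not highest in A. The cardiac factor NKX2-5 had 0, 0 and 1 reads in A, B and HH19, and MYBPC3 and BMP10 had none. Of 13 measured skeletal muscle lineage markers 5 passed the filter and the list summed to 82.6, 123 and 152 TPM, most of it from DES and from PAX3, a gene also expressed by the dorsal neural tube. MYOD1 had 4, 8 and 8 reads. MEF2C, a factor of muscle, heart and neural crest derivatives, was the list's 1 lower gene, with 5.15 TPM in A, 2.05 TPM in B and 0.305 TPM at HH19. The other 4 tested genes of the list lay above the HH14 column, and the median difference of the 5 was 0.27. HH19 was the lowest library for MEF2C, as for MYL3 and MYLK, and the part of MEF2C in those values was not tested.

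Among 9 neural crest markers, all tested, 5 were lower and 2 higher at HH19, where 1.38% and 3.93% of all tested genes were. The median difference of the list was -1.36. Its sum was 218 TPM in A, 223 TPM in B and 251 TPM at HH19, of which MSX1, also a dorsal neural tube gene, gave 81.5, 115 and 181 TPM. Without MSX1, left out after its values were seen, the sum was 136, 108 and 69.5 TPM, lowest at HH19. Of the 9 markers, 4 were higher in A than in B and 5 were lower, so the list had no common order of the HH14 libraries. SNAI2, a factor of emigrating crest cells, had 39.8 TPM in A, 12.8 TPM in B and 2.45 TPM at HH19. That order of libraries was shared with MYLK, and also with MYL3, TNNC1 and ACTA2. SOX10, a factor of crest and glial cells, had 18.7, 28.8 and 3.76 TPM, with B above A. Both SNAI2 and SOX10 were among the 5 lower markers, while the 2 higher markers rose by up to 1.87. Whether crest cells had a part in the MYLK values was not tested.

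**Figure D2:**
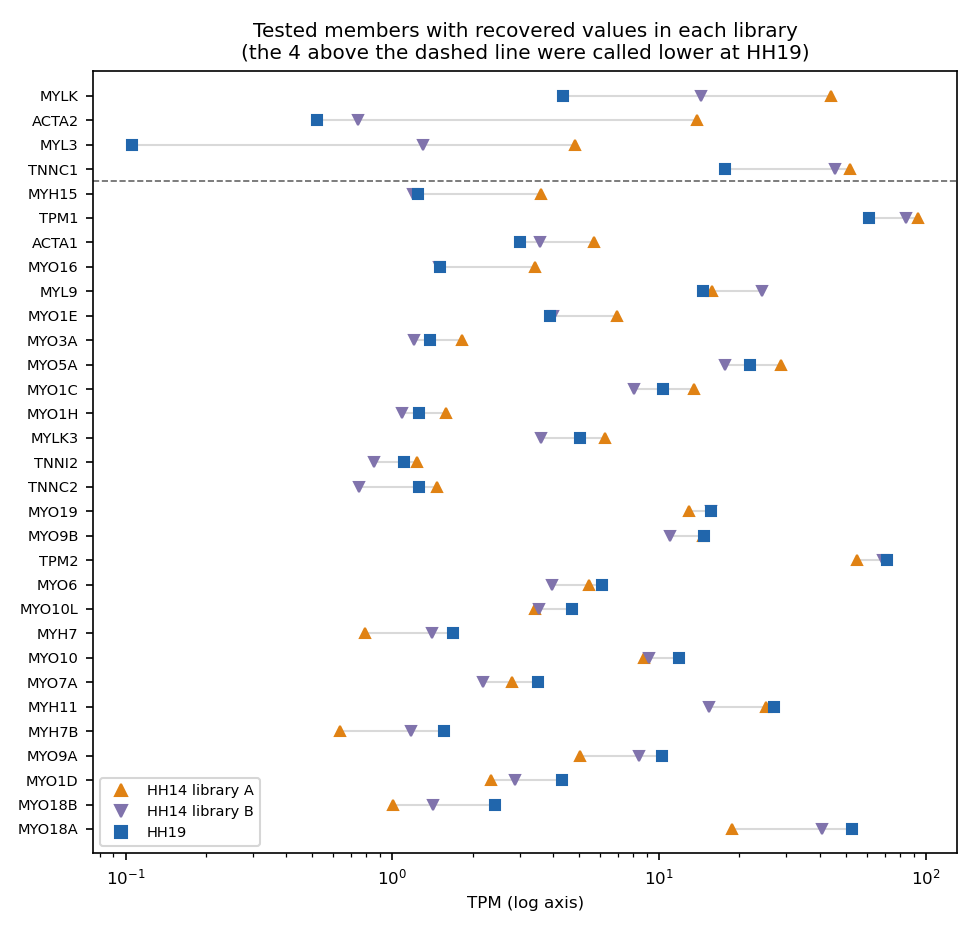
TPM in HH14 library A, HH14 library B and HH19 (1 point each, log axis) for 31 of the 32 tested rows whose reads were recovered, in order of the stage difference. HH19 lies below both HH14 libraries in all 4 called genes, with B far from HH19 for MYLK, MYL3 and TNNC1 and close to it for ACTA2.

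The spread between the HH14 libraries could be set against the stage difference in the 32 tested genes with recovered reads. HH19 lay above both HH14 libraries in 15 of them, where 44.1% of all 9684 recovered and tested genes did, and below both in 8, where 21.9% did. In the other 9 HH19 lay between the libraries. Against library A alone, 5 genes were lower and 1 higher, with 3.55% and 9.03% of all such genes. Against library B alone, 3 were lower (MYLK, TNNC1 and MYL3) and 0 higher, with 0.692% and 3.48%. Between the HH14 libraries themselves, 4 genes were higher in A by at least 1 in log2(TPM + 1) (ACTA2, MYLK, MYL3 and MYH15), where 4.48% of genes were. MYO18A was higher in B by at least 1, where 2.63% were. In plain TPM MYO16 was also 2.28-fold higher in A than in B.

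limma, which pools the spread over genes, was run on log2(TPM + 1) of the 2 HH14 libraries and HH19 with Benjamini-Hochberg adjustment over the 9684 genes. Lower at an adjusted p below 0.05 were 3 of the 32, with 0.165% of all genes, and higher were 0, with 0.898%. Unadjusted p was below 0.05 in 5, where it was in 7.35% of all genes. MYLK fell by 2.29 (SE 0.52, adjusted p = 0.00765), MYL3 by 1.73 (SE 0.48, adjusted p = 0.0488) and TNNC1 by 1.41 (SE 0.39, adjusted p = 0.0494), and all 3 were lower than each HH14 library. ACTA2 had -1.75 (SE 0.58, adjusted p = 0.166). These calls were not stable to the set of genes kept by the recovery. MYL3 and TNNC1 had the same reads under a stricter limit, where limma was run on fewer genes. With a stricter limit on chance solutions, MYLK was not recovered, adjusted p was 0.083 for MYL3 and 0.0837 for TNNC1, and limma called 0 of 26 members, 3 of them at an unadjusted p below 0.05. At that limit 0.0889% of 7876 genes were lower and 0.686% higher. With 1 library at HH19, the spread comes from the HH14 pair of each gene, drawn toward a trend over all genes. In log2(TPM + 1), library A lay above B by 1.55 for MYLK, 1.34 for MYL3, 3.10 for ACTA2 and 0.19 for TNNC1. The SEs thus do not measure the spread of a gene's own pair alone. For MYLK, MYL3 and ACTA2 the SE was far below the difference within the pair, because it was drawn toward the trend. The p-values know no other spread than that between the 2 HH14 libraries, and the single HH19 library adds none.

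**Figure D3:**
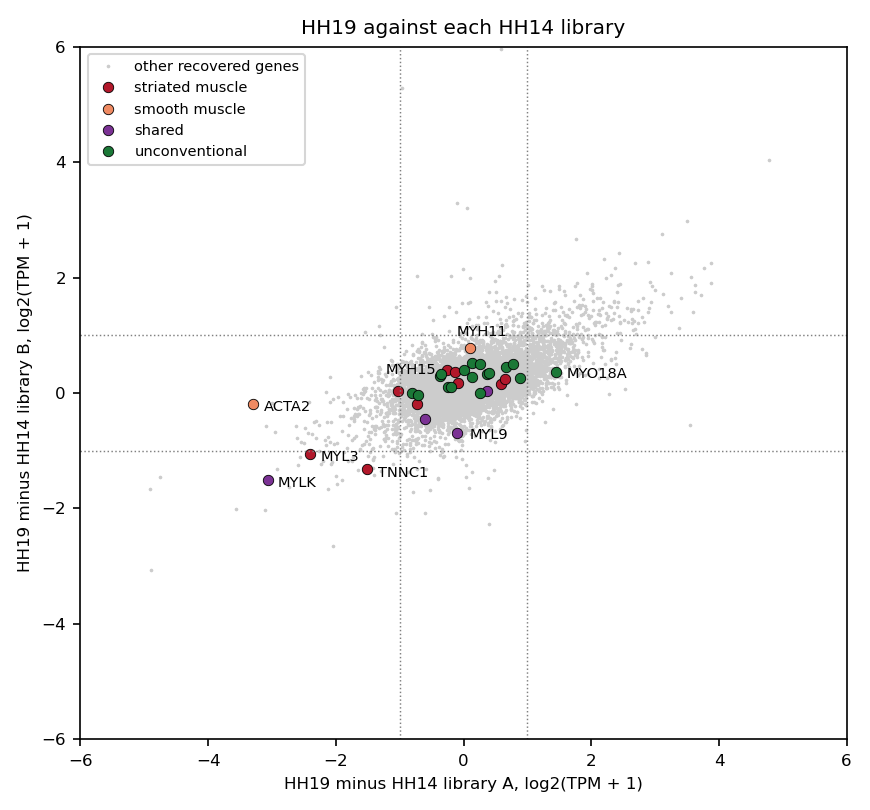
Difference of HH19 from HH14 library A (horizontal) and from library B (vertical) in log2(TPM + 1), for 32 tested rows (coloured by class) and all other recovered and tested genes (grey); dotted lines mark a difference of 1 either way. MYLK, MYL3 and TNNC1 lie beyond -1 on both axes, and ACTA2 only on the horizontal axis, at -3.29.

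The actins were almost all cytoplasmic. ACTB and the 2 ACTG1 rows, which encode beta and gamma actin, made up 99.8% of actin TPM at HH14 and 99.9% at HH19. ACTB stood at 3717 TPM (rank 26 among all genes) in the HH14 column and at 4765 TPM (rank 13) in the HH19 column, a difference of 0.36. The ACTG1 rows had 632 and 679 TPM (ENSGALG00000001381) and 1623 and 1812 TPM (ENSGALG00000028749). All 3 lay above their HH14 value by less than the size limit. Their reads could not be recovered, so no spread between HH14 libraries is known. Skeletal alpha actin ACTA1 had 5.69 TPM in A, 3.59 TPM in B and 3.01 TPM at HH19, and cardiac alpha actin ACTC1 had 0.417, 0.388 and 0.487 TPM. ACTA1 was thus lowest at HH19, within the size limit against each library, and ACTC1 was close to level. Actin genes are near-identical in coding sequence, and the handling of reads that match several of them is not given in the sources used here, so the split among actins is uncertain.

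Non-muscle myosin II was carried mainly by MYH10. The heavy chain genes MYH10 and MYH9, for myosins IIB and IIA, had 139 and 71.1 TPM at HH14 and 139 and 43.7 TPM at HH19. MYH10 was level (difference 0.00), while MYH9 lay 0.69 below its HH14 value, within the size limit. Of the summed TPM of MYH9, MYH10 and the smooth muscle heavy chain MYH11, MYH10 gave 60.3% at HH14 and 66.3% at HH19. MYH9 gave 30.9% and 20.8% of it. MYL12A, a regulatory light chain of non-muscle myosin II, stood at 320 TPM at HH14 against 247 TPM at HH19. MYL9, the regulatory light chain of smooth muscle and non-muscle cells, had 15.8 TPM in A, 24.3 TPM in B and 14.7 TPM at HH19, below both HH14 libraries but nearly level with A. MYH11 had 25.2, 15.4 and 27.0 TPM. Unlike ACTA2, the other smooth muscle gene, MYH11 was highest at HH19, though close to library A.

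Tropomyosins, which lie along the actin filament and serve both muscle and cytoskeletal filaments, came to 715 TPM in all at HH14 and to 611 TPM at HH19. TPM3 and TPM4 led with 284 and 281 TPM in the HH14 column and 253 and 225 TPM at HH19. TPM1 had 93.2 TPM in A, 84.3 TPM in B and 61.1 TPM at HH19, below both by less than the size limit. TPM2 had 55.4, 69.4 and 71.4 TPM, above both but near B. None of the 4 was called. Muscle and cytoskeletal forms come from the same genes by splicing, and gene totals do not tell them apart.

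Among troponins TNNC1 stood alone in level. The other 5 subunit genes lay between 0.2 and 1.3 TPM at either stage, and 2 of them, TNNC2 and TNNI2 of fast muscle, passed the filter. TNNC2 had 1.47 TPM in A, 0.748 TPM in B and 1.26 TPM at HH19, and TNNI2 had 1.24, 0.857 and 1.11 TPM, each with HH19 between the libraries. TNNI1, the slow inhibitory subunit, had 22, 10 and 6 reads in A, B and HH19. The tropomyosin-binding subunits had few reads, TNNT2 of cardiac muscle 4, 2 and 6 and TNNT3 of fast muscle 18, 12 and 19. Of the inhibitory and tropomyosin-binding partners of TNNC1 in slow and cardiac muscle, TNNI1 and TNNT2 were measured. Both thus stayed under 1 TPM in the HH14 column, where TNNC1 had 48.9 TPM. The symbols TNNI3 and TNNT1 were not among the measured genes.

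The striated myosin genes apart from MYL4 were low. MYL4, the embryonic and atrial essential light chain, made up 81.6% at HH14 and 88.1% at HH19 of the TPM of genes classed by name as striated muscle. Its difference was -0.22. The class was set by name alone, and which cells held the MYL4 RNA was not tested. MYH15, the chicken ventricular heavy chain, had 3.60 TPM in A, 1.19 TPM in B and 1.25 TPM at HH19, high in A alone as ACTA2 and the lateral plate and endoderm markers were, whose part was not tested. MYH7 and MYH7B, heavy chain genes of slow and cardiac type, were lowest in A, with 0.793 and 0.636 TPM there, 1.41 and 1.18 TPM in B, and 1.69 and 1.56 TPM at HH19. MYLK3, the cardiac light chain kinase, had 6.29, 3.62 and 5.07 TPM, with HH19 between the libraries.

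The fast skeletal heavy chains had few reads or none. In RefSeq (assembly GRCg7b, used for names and order only), MYH13, MYH1D, MYH1F, MYH1A, MYH1B, MYH1E, MYH1C and MYH1G follow each other with 0 protein-coding genes between. All 8 together had 10 reads in A, 13 in B and 15 at HH19. MYH1A, MYH1B, MYH1E and MYH1F had none in any library, nor did the kinase gene MYLK4. For these 5 genes a count of 0 allows up to 3 reads, or 0.0207 to 0.0928 TPM by gene and library. MYH1D had 0, 1 and 7 reads, the light chain genes MYL1 0, 1 and 6 and MYL2 0, 2 and 6. MYL10, a regulatory light chain gene, had 6, 12 and 10 reads. MYH1D, MYL1 and MYL2 had most of their reads at HH19, at levels too low for the filter. These heavy chains are near-identical copies, and reads could be split among them.

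The 23 unconventional myosins, mostly motors of membranes and organelles, had no called gene. They were counted as non-muscle by the MYO prefix alone, and a muscle role of single genes was not considered. Of 17 tested, 11 lay above the HH14 column, where 55.6% of all tested genes did, and 6 below. The median difference was 0.21, against 0.05 over all tested genes. The size limit was met by 0 of the 17, against 5.31% of all tested genes. HH19 was above both HH14 libraries in 11 of the 17, against 44.1% of all recovered and tested genes, below both in 1, against 21.9%, and between in 5. MYO18A, a myosin linked to the Golgi, had 18.7 TPM in A, 40.9 TPM in B and 52.9 TPM at HH19, from 2317, 6479 and 6900 reads. The HH14 libraries differed 2-fold, and HH19 was close to B, with a difference of 1.45 from A and 0.37 from B. MYO5A, a vesicle carrier of neurons and pigment cells, had 28.6, 17.7 and 22.0 TPM, and MYO19, a mitochondrial motor, 13.0, 15.6 and 15.7 TPM. In MYO5A HH19 lay between the HH14 libraries, and in MYO19 it matched B. MYO10, a motor of filopodia, had 8.80, 9.16 and 11.9 TPM, with HH14 libraries close together and HH19 above them by less than the size limit. MYO1C, a class I gene whose product links membrane to actin, had 13.5 TPM in A, 8.05 TPM in B and 10.3 TPM at HH19, with HH19 between the libraries. The other tested unconventional genes lay between 1.2 and 15 TPM at either stage, and 6 of the 23 did not pass the filter.

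**Figure D4:**
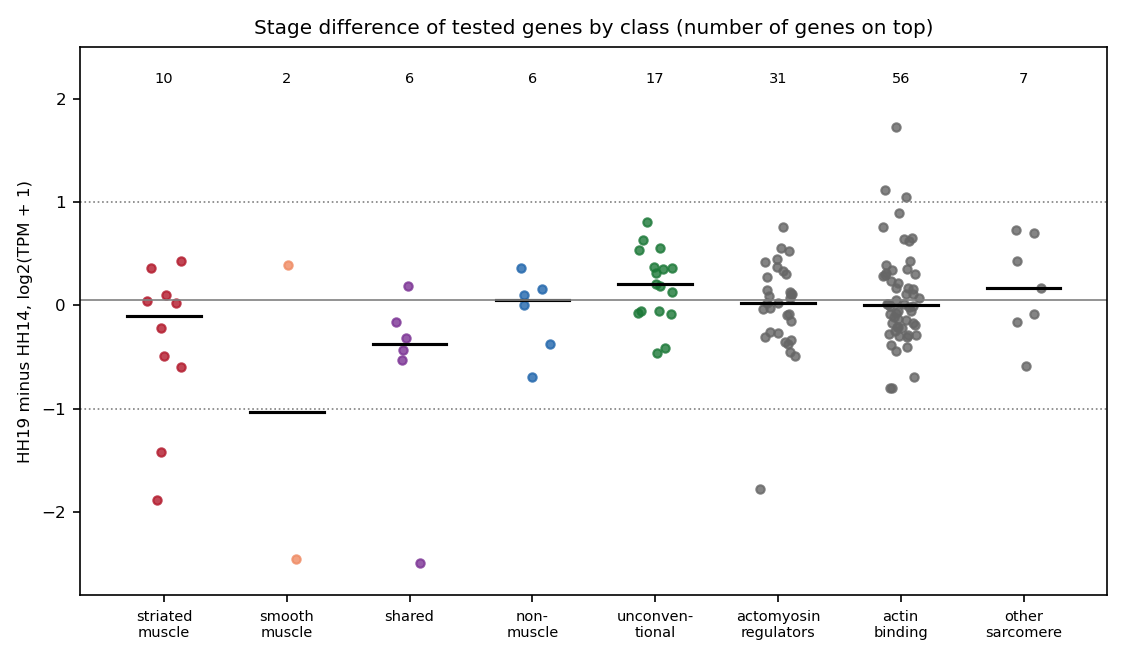
HH19 minus HH14 in log2(TPM + 1) for tested genes of each class and of 3 lists of other actomyosin genes; points are genes, thick bars medians, the thin line the median of all tested genes (0.05) and dotted lines a difference of 1 either way. The called genes are in the striated, smooth and shared classes and, outside the families, ARHGAP28 among regulators and 3 higher actin binding genes.

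Genes that regulate or accompany these motors mostly stayed within the limits, as most of all tested genes did. Of 40 actomyosin regulators listed, 31 were tested, 0 were higher and 1 was lower, where 3.93% and 1.38% of all tested genes were. The lower gene was ARHGAP28, which turns RhoA off, with 19.02 TPM in A, 5.28 TPM in B and 2.85 TPM at HH19. It was below both libraries but only 0.71 below B, so the call was not met without library A. RHOA, the switch upstream of myosin II, stood at 1092 TPM at HH14 against 981 TPM at HH19, and CDC42 408 and 415 TPM. The kinases ROCK1 and ROCK2, which act on the same light chain as MYLK, had 41.3 and 20.4 TPM in the HH14 column. ROCK1 had 51.9 TPM in A, 30.6 TPM in B and 34.1 TPM at HH19. ROCK2 had 26.6, 14.1 and 19.03 TPM. HH19 lay between the HH14 libraries for both genes. The 2 kinases were named after their values were seen.

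Of 76 actin binding and assembly genes listed, 56 were tested, 3 were higher and 0 lower. Over all tested genes 3.93% were higher and 1.38% lower, so the counts lay near those shares. CORO2B, a coronin of neurons, had 0.297 TPM in A, 1.45 TPM in B and 5.20 TPM at HH19. TAGLN3, a neuronal transgelin, stood at 105 TPM at HH14 against 229 TPM at HH19. TMOD2, the neuronal tropomodulin that caps filament ends, had 4.14, 5.34 and 10.9 TPM. CORO2B and TMOD2 were above both HH14 libraries. CORO2B lay 2.26 above A and 1.34 above B, so its call was met against each library. TMOD2 was only 0.91 above B, so its call was not met without library A. TAGLN3 could not be recovered. After median-ratio scaling or quantile normalization 2 genes of the list were higher. The filament-severing gene DSTN (1560 and 1429 TPM) and COTL1 (1050 and 989 TPM) were the most abundant.

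Of 53 sarcomere genes outside the families, 7 of 39 measured passed the filter and 0 were called, where 5.31% of all tested genes were. The most abundant were the calcium pump gene ATP2A2, at 68.3 TPM in the HH14 column and 77.0 TPM at HH19, and DES, with 31.7 TPM in A, 66.4 TPM in B and 82.1 TPM at HH19. DES was lowest in library A, opposite to ACTA2.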

How the data were processed

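The stage in the labels set the groups, 2 libraries of polyadenylated RNA at HH14 and 1 at HH19. The authors deposited TPM per Ensembl gene in 2 columns, 1 per stage, which were compared as deposited. Per the submitters' processing notes, reads were processed on galGal4 with tools that included TopHat2, SAMtools, FastQC and DESeq2. What each did, its version, how reads were counted and how the HH14 libraries were merged is not given in the sources used here. No coordinates were used.

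The members and lists were chosen with earlier results of these data known. Any member could be named. Of the members, 1 is not reported here by name or plotted by name, but it stays in all counts, sums and medians. Other lists were named by their called genes and 2 most abundant genes, markers aside. A limma fit planned for 1 column per library could not be run on the deposited columns, and genes were described by size, with a pseudocount of 1 and a mean TPM of at least 1.

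Recovery searched lengths of 60 to 20000 bases for the smallest length at which all values were whole reads plus 1, and kept solutions with fewer than 0.05 expected by chance. Read numbers are the smallest that give the values, and a common multiple of reads and length would give the same TPM. Of 204 microRNA genes without a read, 193 had their RefSeq length. Genes without reads also helped to set the constants, so this match was partly built in. It does not check the read numbers, or the split between A and B, of genes with reads. The limits of the recovery were widened after values of the members had been seen. At a chance limit of 0.01, 12694 genes and 50 members were recovered. limma (3.58.1, R 4.3.3, two-sided, intensity trend) was added after the data were seen. The recovery, the size rule and limma were tested on simulated data. These were built with the same model of the reads, so the model itself was not checked. Python 3.11.15, numpy 2.4.6, pandas 2.3.3, numba 0.67.0 and matplotlib 3.10.9 were used.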

Additional observations from a re-analysis of the deposited data

How the results depend on the processing

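MYLK, ACTA2 and TNNC1 were lower, and 0 members higher, under all 7 settings tried on the 2 columns, which were both scalings, no filter, a higher filter, summed ACTG1 rows and other pseudocounts. MYL3 was lower in 5 of them, with -0.66 at a pseudocount of 5 and too low for a filter at 5 TPM. Median-ratio scaling and quantile normalization each moved the median of all tested genes from 0.05 to -0.03. The muscle median was -0.82 at a mean TPM of at least 5. Actin binding genes had 1 higher at a pseudocount of 5 and 1 lower at 0.1. Leaving out an HH14 library, among recovered genes, gave 3 to 5 lower and 0 to 1 higher members. It gave 0 to 1 higher and 0 to 1 lower regulators, 1 to 4 higher and 0 to 2 lower actin binding genes, and 0 to 1 higher sarcomere genes. ACTA2 without library A was at -0.20. Without library B, MYH15 was at -1.03 and MYO18A at 1.45. At the chance limit of 0.01 limma called 0 members, against 3 at 0.05, and MYH11, MYLK, MYO18A, MYO5A, TPM1 and TPM2 were among those not recovered. MYL3 and TNNC1 kept their reads at 0.01, and limma was then run on 7876 genes in place of 9684. Which part of the fit moved their adjusted p was not tested. ACTB, ACTG1, MYH9, MYH10, MYL12A, MYL4, TPM3 and TPM4 had no recovered reads. No paired analysis was possible because HH19 has 1 library and the HH14 libraries share 1 column.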
